A study of Mus musculus with 8 samples.

Results

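A set of 9 genes of T cell co-stimulation and immune checkpoints was examined in red pulp macrophages, the splenic macrophages that clear old red blood cells and recycle their iron. They are Cd80, Cd86, Icosl, Cd40, Cd83, Cd274, Pdcd1lg2, Havcr2 and Vsir. They were chosen by name, with earlier results of these data known, and all 9 had a row among the 55414 genes of the deposited counts. The mice were wild-type C57BL/6J. The first group had undergone cecal ligation and puncture (CLP), a sepsis model in which gut contents leak through a punctured cecum, and the other a sham operation as control. Spleens were taken 2 h after surgery and the macrophages were isolated by flow cytometry, which gave 4 CLP and 4 Sham libraries. The labels do not state age or sex, or whether each library was 1 mouse, so the p-values below measure the spread between libraries, which may in part be technical.

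These proteins carry the signals that a T cell reads beside antigen. CD80 and CD86 on a presenting cell engage CD28, which activates, and CTLA-4, which restrains. ICOS ligand engages ICOS, and CD40 is the receptor through which T cells that display CD40 ligand stimulate the presenting cell, by TRAF adaptors and NF-kB. CD83 marks mature dendritic cells and protects CD86 and MHC class II from MARCH1-driven degradation. PD-L1, the product of Cd274, and PD-L2, the product of Pdcd1lg2, bind PD-1 and dampen T cells. TIM-3, the product of Havcr2, and VISTA, the product of Vsir, are inhibitory molecules that myeloid cells also carry.

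The promoters of the members that rose are shown for reference, since those genes moved together and the windows can be searched for binding motifs of the transcription factor families described further on. RefSeq's promoter table for build GRCm38.p6 held 6 of the 9 members, namely Cd274, Pdcd1lg2, Cd80, Icosl, Havcr2 and Vsir, and did not list Cd40, Cd86 or Cd83. Each window runs from 250 bases before to 50 bases after the transcription start. The submitters' processing notes name mm39, a different build, for the counts. Capitals mark motif matches. The 4 sequences below lie on the plus strand, 5′ to 3′, at chr19:29367188-29367487 (Cd274), chr19:29410669-29410968 (Pdcd1lg2), chr16:38458683-38458982 (Cd80) and chr10:78069118-78069417 (Icosl).
Cd274: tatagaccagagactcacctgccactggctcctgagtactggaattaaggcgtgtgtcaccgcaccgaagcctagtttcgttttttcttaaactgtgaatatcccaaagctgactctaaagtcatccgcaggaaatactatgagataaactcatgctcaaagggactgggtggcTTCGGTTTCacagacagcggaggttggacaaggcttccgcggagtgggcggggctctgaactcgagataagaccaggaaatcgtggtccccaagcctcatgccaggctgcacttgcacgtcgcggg
Pdcd1lg2: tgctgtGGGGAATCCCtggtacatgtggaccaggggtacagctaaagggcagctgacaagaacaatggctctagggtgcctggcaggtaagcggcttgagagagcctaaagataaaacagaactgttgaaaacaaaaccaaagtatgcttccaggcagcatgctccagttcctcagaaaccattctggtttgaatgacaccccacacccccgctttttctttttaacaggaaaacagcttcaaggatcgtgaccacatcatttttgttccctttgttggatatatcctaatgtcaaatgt
Cd80: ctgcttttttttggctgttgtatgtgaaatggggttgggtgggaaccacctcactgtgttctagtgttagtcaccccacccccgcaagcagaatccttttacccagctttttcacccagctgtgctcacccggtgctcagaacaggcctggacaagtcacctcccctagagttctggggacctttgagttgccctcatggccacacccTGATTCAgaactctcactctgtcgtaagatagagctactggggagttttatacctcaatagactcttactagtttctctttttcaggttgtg
Icosl: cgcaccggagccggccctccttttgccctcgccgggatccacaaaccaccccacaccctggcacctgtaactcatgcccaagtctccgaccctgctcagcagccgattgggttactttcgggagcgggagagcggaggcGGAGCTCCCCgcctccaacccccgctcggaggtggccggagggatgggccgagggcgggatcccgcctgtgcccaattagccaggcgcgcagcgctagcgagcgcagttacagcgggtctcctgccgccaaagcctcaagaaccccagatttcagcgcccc

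Both strands were searched for the NF-kB consensus, for the AP-1 motif TGANTCA, for the STAT motif TTCNNNGAA and for GAAANNGAA, which IRF proteins bind. Among all 32851 promoter windows of the table, 8.46% held the NF-kB consensus, 7.81% the AP-1 motif, 8.30% the STAT motif and 8.56% the IRF motif. Cd274 held 1 match, the IRF motif, at bases -76 to -68 from the start. Pdcd1lg2 held 1 NF-kB match at -244 to -235, and Icosl held 1 NF-kB match at -111 to -102. An AP-1 match lay at -42 to -36 in Cd80 and at -200 to -194 in Havcr2. Vsir had no match to the 4 motifs, which says only that these letters are not in its window. No matches overlapped each other, and a match describes the sequence and does not show binding.

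Most of the members were higher after CLP. Of the 9 members, all passed the filter on low counts, 7 were higher and none was lower at an adjusted p under 0.05 in edgeR's quasi-likelihood test, and 2, Havcr2 and Vsir, did not pass. Over all 14004 genes tested, 19.8% were called higher and 23.5% lower. The CPM of the groups (read counts relative to library size, scaled by TMM) did not overlap for 7 of the 9 members, against 41.5% of all genes. The median log2 fold change, CLP minus Sham, was 1.59 over the members and -0.05 over all genes tested. Scaling by library totals in place of TMM shifted log2 fold changes by a median of -0.32, and then 6 members were higher and 1 was lower. In bulk RNA a change in the share of cells that express a gene and a change of RNA per cell cannot be told apart.

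**Figure D1:**
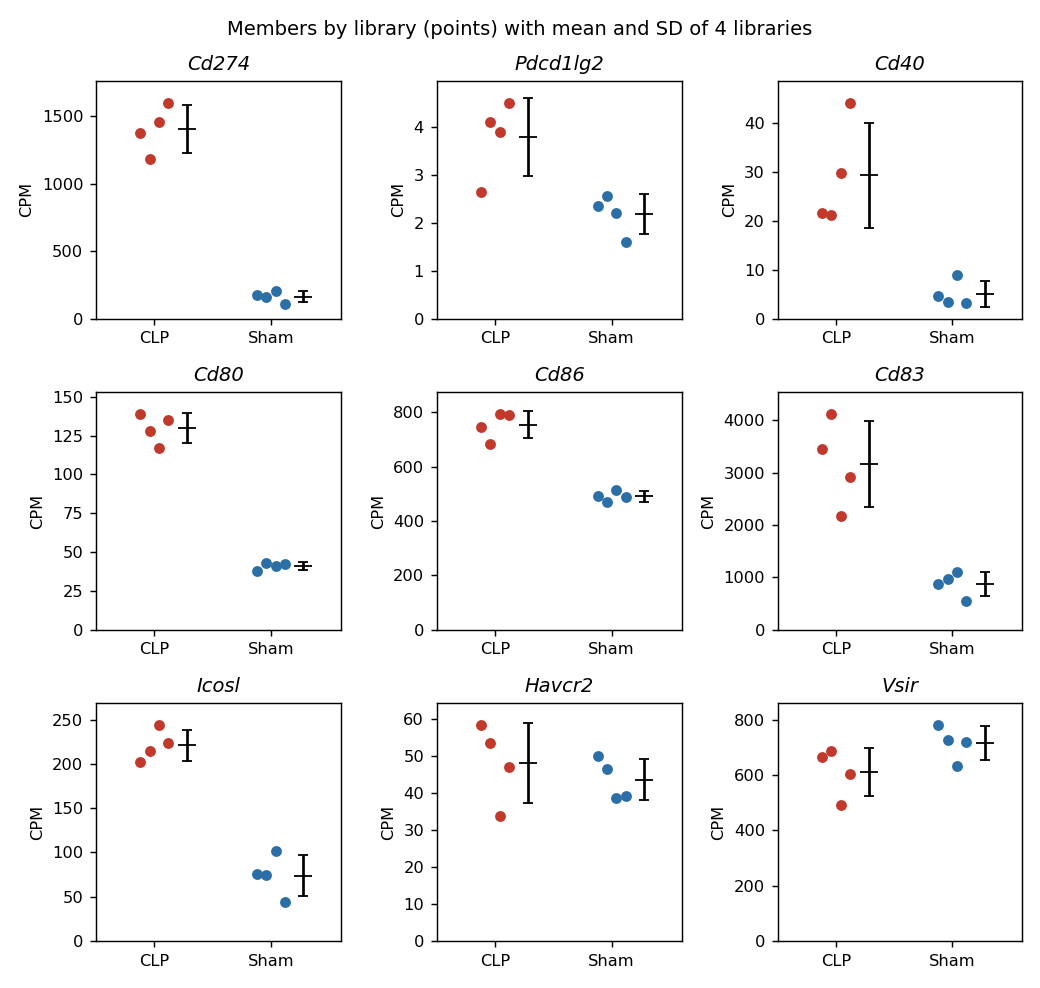
CPM (TMM-scaled, linear axes from 0) of each of the 9 members in the 4 CLP and 4 Sham libraries (points), with the mean and SD of each group beside them. The groups are apart for 7 members and overlap for Havcr2 and Vsir.

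Both ligands shared by CD28 and CTLA-4 rose, Cd80 by more than Cd86. Cd80 stood at 139, 128, 117 and 135 CPM in CLP replicates 1 to 4, against 37.6, 43.1, 40.9 and 42.6 CPM in Sham replicates 1 to 4. Every CLP library lay far above every Sham library, and the Sham libraries were close to each other. The mean was 130 ± 9.64 CPM in CLP and 41.1 ± 2.50 CPM in Sham (SD, n = 4 each), a 3.16-fold rise (log2 fold change 1.66, SE 0.08, adjusted p = 6.43e-07). Cd86 stood at 748, 685, 795 and 790 CPM in CLP and at 493, 469, 515 and 489 CPM in Sham. The groups did not overlap, with the lowest CLP library at 685 CPM and the highest Sham library at 515 CPM. Cd86 averaged 755 ± 51 CPM in CLP and 491 ± 19 CPM in Sham, a 1.54-fold rise (log2 fold change 0.62, SE 0.07, adjusted p = 6.8e-05). Scaled by library totals, its log2 fold change was 0.30, still called (adjusted p = 0.00304).

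Icosl, the ligand of ICOS, stood at 202, 215, 244 and 223 CPM in CLP and at 75.1, 74.6, 101 and 44.3 CPM in Sham. The CLP libraries were close together, while the Sham libraries were spread, with replicate 3 highest and replicate 4 lowest. Its mean was 221 ± 17.7 CPM in CLP and 73.7 ± 23.1 CPM in Sham, a 3.01-fold rise (log2 fold change 1.59, SE 0.21, adjusted p = 0.000398).

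Cd40, the receptor for CD40 ligand, was a low-count gene that rose in every CLP library. It had 338, 417, 545 and 668 reads in the CLP libraries, which is 21.7, 21.3, 29.9 and 44.2 CPM, against 129, 82, 154 and 76 reads in the Sham libraries, which is 4.67, 3.38, 8.97 and 3.12 CPM. The spread within each group was wide, with CLP replicate 4 and Sham replicate 3 above the rest of their groups. Even so the lowest CLP library exceeded the highest Sham library. The log2 fold change was 2.56 (SE 0.39, adjusted p = 0.00091), and leaving out each library in turn gave 2.29 to 3.00.

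Cd83 was the most abundant member per exon length in all 8 libraries. Its values were 3452, 4121, 2175 and 2908 CPM in CLP and 874, 965, 1096 and 549 CPM in Sham. CLP replicate 3 was the lowest of its group and Sham replicate 4 the lowest of its own, and the groups stayed apart. The log2 fold change was 1.86 (SE 0.25, adjusted p = 0.000415), or 1.72 without Sham replicate 4.

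The PD-1 ligands lie next to each other on chromosome 19 and differed in level and in change. Cd274, which encodes PD-L1, had the largest log2 fold change of the 9 members. Cd274 reached 1378, 1181, 1459 and 1602 CPM in the CLP libraries, against 173, 164, 203 and 106 CPM in the Sham libraries. The groups were far apart, and Sham replicate 4 was the lowest library. The rise was 8.71-fold (log2 fold change 3.12, SE 0.19, 95% interval 2.69 to 3.56, adjusted p = 3.26e-06), and 2.99 on the log2 scale without Sham replicate 4. An annotated gene on the opposite strand shares 14.1% of the exon bases of Cd274 but had 110 counts over all libraries, against 110241 for Cd274.

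Pdcd1lg2, which encodes PD-L2, rested on few reads. It had 41, 80, 71 and 68 reads in the CLP libraries, or 2.63, 4.09, 3.89 and 4.50 CPM, against 65, 62, 38 and 39 reads in the Sham libraries, or 2.35, 2.55, 2.21 and 1.6 CPM. The groups did not overlap, but CLP replicate 1 lay just above Sham replicate 2. Its log2 fold change was 0.79 (SE 0.24, 95% interval 0.27 to 1.32, adjusted p = 0.0196). It no longer passed when CLP replicate 4 was left out (log2 fold change 0.70, adjusted p = 0.0618), nor when libraries were scaled by their totals (0.48, adjusted p = 0.109). Pdcd1lg2 shares no exon bases with A930007I19Rik, a gene on the opposite strand within its span that had 635 counts in all, against 464 for Pdcd1lg2.

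Havcr2 and Vsir did not pass the test. Havcr2, which encodes TIM-3, stood at 58.4, 53.5, 33.7 and 47.0 CPM in CLP and at 50, 46.4, 38.7 and 39.3 CPM in Sham. The groups overlapped, and CLP replicate 3 was the lowest of all 8 libraries. The log2 fold change was 0.14 with a 95% interval of -0.21 to 0.49 (adjusted p = 0.511), and its sign turned with library totals (-0.18, adjusted p = 0.346). Vsir, which encodes VISTA, stood at 665, 685, 492 and 603 CPM in CLP and at 781, 726, 632 and 719 CPM in Sham. Here too the groups overlapped and CLP replicate 3 was lowest. The log2 fold change was -0.23 with a 95% interval of -0.46 to 0.01 (adjusted p = 0.118). With library totals Vsir was called lower (-0.54, adjusted p = 0.0012).

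**Figure D2:**
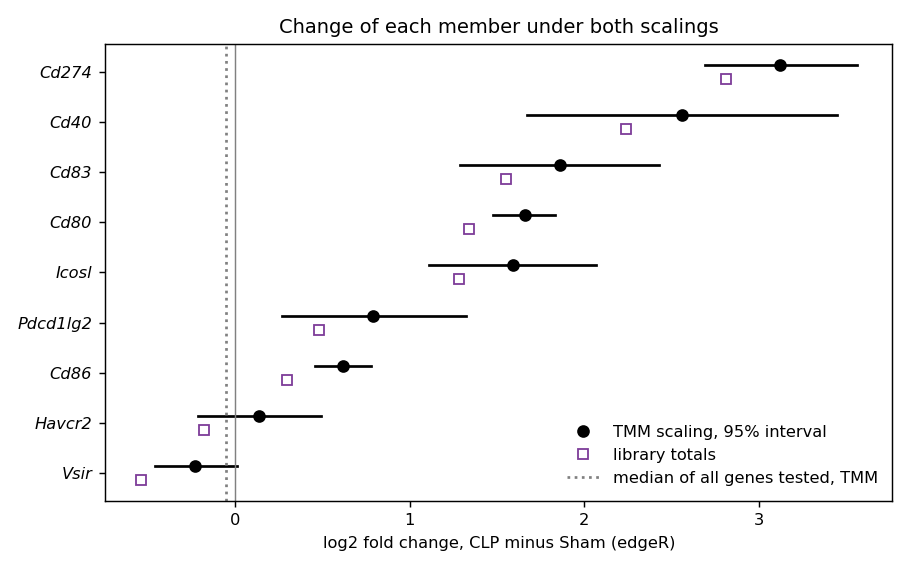
Log2 fold change (CLP minus Sham, edgeR) of each member with TMM scaling and its 95% interval (black) and with library totals (open squares), with the median of all genes tested as a dotted line. Cd274 is highest at 3.12, and the intervals of Havcr2 and Vsir include 0.

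The order of the members by level, in CPM per kb of exon, differed between the groups. In CLP the order of mean levels was Cd83 (1230 CPM per kb), Cd274 (388), Cd86 (206), Vsir (122), Icosl (47.9), Cd80 (35), Havcr2 (17.7), Cd40 (8.59) and Pdcd1lg2 (1.93). This order was the same in all 4 CLP libraries, and the library ranges of neighbours overlapped for Havcr2 and Cd40 alone. In Sham the order was Cd83 (339 CPM per kb), Vsir (142), Cd86 (134), Cd274 (44.5), Havcr2 (16.0), Icosl (16.0), Cd80 (11.1), Cd40 (1.48) and Pdcd1lg2 (1.11). There the ranges overlapped between Vsir and Cd86, between Havcr2 and Icosl, between Icosl and Cd80 and between Cd40 and Pdcd1lg2, and each of these pairs kept its order in 3 of 4 libraries. Cd274 thus ranked 2 of 9 in every CLP library and 4 of 9 in every Sham library.

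**Figure D3:**
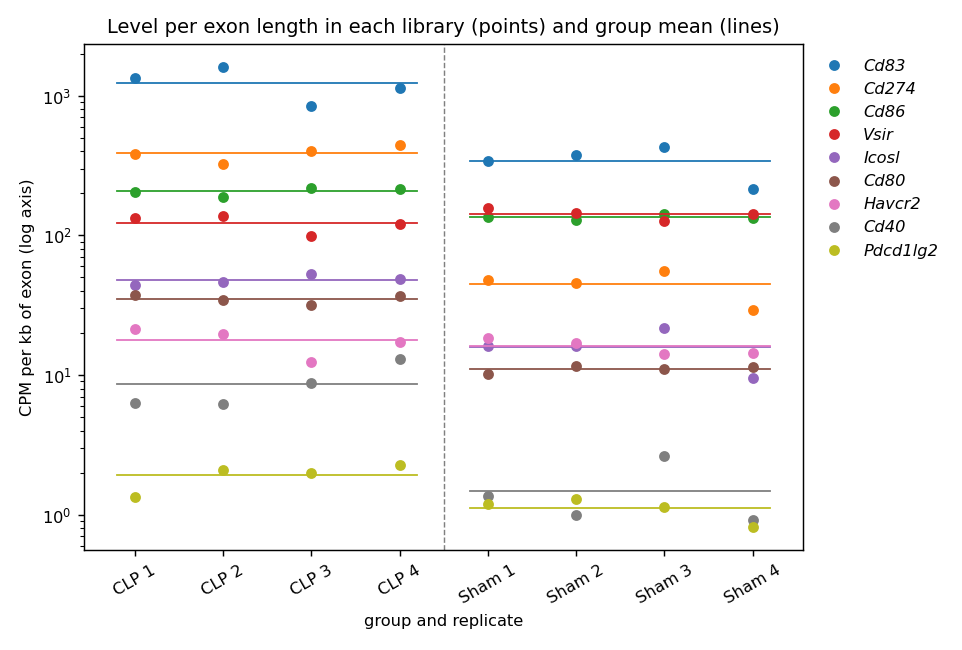
Level of each member in CPM per kb of exon (log axis) in each library (points), with CLP left and Sham right and the group mean as a line. Cd274 lies above Cd86 and Vsir in all CLP libraries and below both in all Sham libraries.

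Ratios within a library do not depend on how libraries are scaled, and 6 pairs of members were compared this way. For all 6 the CLP and Sham values did not overlap, and the two-sided exact permutation test over 70 assignments gave p = 0.0286, the smallest it allows (adjusted p = 0.0286 over the 6 pairs). The pairs share Cd274 and Cd86, so they are not 6 independent results. Of all single genes tested, 41.5% did not overlap, and the share over other gene pairs was not computed. Cd274 over Cd86, the log2 ratio per exon length, was 0.90, 0.80, 0.89 and 1.03 in CLP and -1.49, -1.50, -1.33 and -2.19 in Sham. PD-L1 RNA thus exceeded CD86 RNA per length in every CLP library and was below it in every Sham library, with a difference of 2.54 on the log2 scale. Cd274 over Pdcd1lg2, the balance of the PD-1 ligands, was 8.13, 7.28, 7.65 and 7.58 in CLP and 5.30, 5.11, 5.61 and 5.14 in Sham, a difference of 2.37. Cd274 over Cd80, whose proteins bind each other on the same cell, differed by 1.5 on the log2 scale.

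The CD28 ligands also shifted against each other. Cd80 over Cd86, on the log2 scale per exon length, was -2.45, -2.44, -2.78 and -2.56 in CLP and -3.73, -3.46, -3.67 and -3.53 in Sham. Cd86 stayed the more abundant RNA in all 8 libraries, while the ratio of Cd80 to Cd86 was 2.06 times higher in CLP. Cd40 over Cd86 differed by 1.99 on the log2 scale and was 3.96 times higher in CLP. Havcr2 over Vsir averaged -2.80 in CLP and -3.16 in Sham, the smallest of the 6 differences (0.35). That pair differed in ratio although neither gene passed the test alone.

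**Figure D4:**
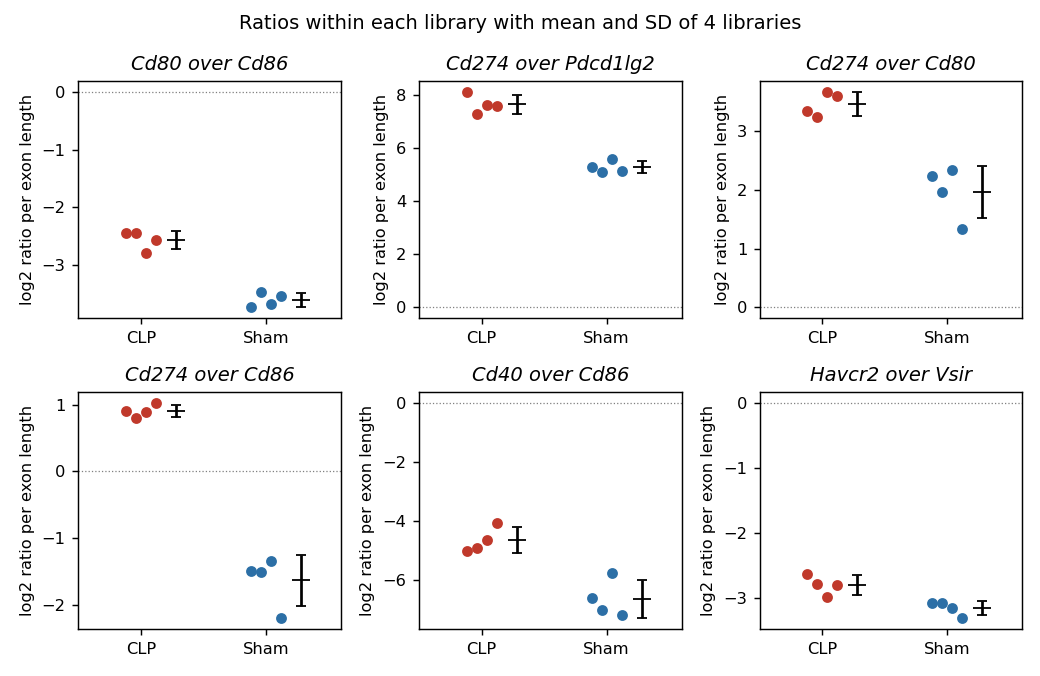
Log2 ratio per exon length between pairs of members in each library (points), with mean and SD of 4 libraries per group and 0, equal level, as a dotted line. The groups are apart in all 6 panels, and Cd274 over Cd86 lies above 0 in CLP and below 0 in Sham.

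Within a group, different members had their extremes in different libraries. Sham replicate 4 held the lowest Sham value of 5 members, Cd274, Pdcd1lg2, Cd40, Cd83 and Icosl, while Sham replicate 3 was the highest for 5 and the lowest for Havcr2 and Vsir. CLP replicate 3 was the lowest CLP library for Cd80, Cd83, Havcr2 and Vsir and the highest for Cd86 and Icosl. Without Sham replicate 4 all 7 higher members were still called.

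The genes whose log2 CPM profile over the 8 libraries was nearest to that of each member, among 9042 named genes at 5 CPM or more, were found by the root-mean-square difference of centred values. Nearest to Cd274 were Mmp19 (0.143 log2 units), Rnd1 (0.180) and Maff (0.183). For Cd83 they were Nfkbiz (0.086), which encodes a nuclear IkB protein, Tgfb3 (0.154) and Ptger4 (0.167). For Icosl they were Birc3 (0.097), an inhibitor of apoptosis that works with TRAF proteins, Irak2 (0.123) and Ehd1 (0.140). Mmp19 averaged 561 ± 91.6 CPM in CLP and 72.6 ± 21.1 CPM in Sham, and Nfkbiz averaged 1382 ± 303 CPM in CLP and 414 ± 107 CPM in Sham. Nearest to Cd80 were Aff1 (0.096), Hs6st1 (0.129) and Dyrk2 (0.142), and nearest to Cd40 were Slc2a6 (0.188), Adora2a (0.205) and Lrrc3 (0.206). Among the genes nearest to Cd86 were Mafg (0.038) and Eif4g2 (0.049), and Pdcd1lg2 lay nearest to Pcgf5 (0.184), Usp16 (0.187) and Pnpla8 (0.189). Havcr2 had Tgfbi (0.065), Nxpe5 (0.081) and Otud1 (0.083) nearest, and Vsir had Rxra (0.042), Gpd1l (0.049) and Micu2 (0.050). Genes that change little have small distances by construction, so distances are not comparable between members.

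Other ligands and receptors of lymphocyte contact were less uniform. Each list below is to be read beside all genes tested, of which 19.8% were higher and 23.5% lower (median log2 fold change -0.05). Of 35 listed genes 26 were tested, 12 were higher, 3 were lower and 11 did not pass, with a median log2 fold change of 0.37. The lower genes numbered 5 with library totals and 1 or 2 when any 1 library was left out. Tnfsf9, the ligand of 4-1BB on T cells, averaged 114 ± 24.5 CPM in CLP and 2.23 ± 0.876 CPM in Sham (log2 fold change 5.71, adjusted p = 2.11e-06). Slamf1, a self-binding receptor of lymphocytes and myeloid cells, averaged 28.5 ± 8.74 CPM in CLP and 2.41 ± 0.394 CPM in Sham (3.57 on the log2 scale, adjusted p = 2.06e-06). Pvr, a ligand of DNAM-1 and TIGIT, rose to 152 ± 16.9 CPM in CLP against 33.6 ± 6.33 CPM in Sham (2.18, adjusted p = 1.74e-06). Sirpa, the receptor for CD47 and the most abundant of the list, was at 3782 ± 192 CPM in CLP and 2912 ± 244 CPM in Sham (0.38, adjusted p = 0.00359). The 3 lower genes, named after their values were seen, were Cd200r1 (-1.25), an inhibitory receptor of macrophages, Tnfsf18 (-0.70), the ligand of GITR, and Nectin2 (-0.44). Lgals9, which encodes the TIM-3 ligand galectin-9 and was also named afterwards, averaged 78.4 ± 3.86 CPM in CLP and 72.5 ± 9.10 CPM in Sham (adjusted p = 0.355).

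The T cell receptors for these ligands were mostly at low counts. Of 14 listed, 11 were tested, 3 were higher, 1 was lower and 7 did not pass, with a median log2 fold change of 0.51. Lag3, the most abundant, was at 128 ± 30.2 CPM in CLP and 112 ± 11.4 CPM in Sham (adjusted p = 0.384). Icos was lower, at 10.8 ± 1.57 CPM in CLP and 17.0 ± 1.83 CPM in Sham (-0.65, adjusted p = 0.00259). The higher genes, named after their values were seen, were Tnfrsf9, Pdcd1 and Cd226, all at or below 5.97 CPM on average in CLP. Pdcd1 lay at 0.247 to 0.583 CPM and Tnfrsf9 at 0.145 to 1.11 CPM in the Sham libraries, so that both passed the filter on low counts through the CLP libraries, and their calls are a description. The higher genes numbered 2 with a filter at a mean of 1 CPM. Cd40lg, Tigit and Tnfrsf8 did not pass the filter on low counts, and Cd28 and Ctla4 were not called.

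CD40 signals through TRAF proteins and NF-kB. All genes of the CD40 and NF-kB list, not all of which are specific to CD40, were called with TMM scaling. Of 22 tested, 19 were higher and 3 lower, with a median log2 fold change of 1.11; with library totals 15 were higher and 3 lower. Tnfaip3 was the most abundant of them. Its product, A20, restrains NF-kB, and its level averaged 5000 ± 118 CPM in CLP and 838 ± 190 CPM in Sham (2.58 on the log2 scale, adjusted p = 1.46e-06). Rel, the NF-kB subunit c-Rel, averaged 1306 ± 275 CPM in CLP and 232 ± 63 CPM in Sham (2.49, adjusted p = 4.98e-05). Bcl2a1b, a survival gene, rose by 3.11 on the log2 scale, although near-identical copies in mouse make its counts uncertain. The lower genes, named after their values were seen, were Tradd (-0.65), Traf5 (-0.58) and Ikbkg (-0.35). Sham replicate 4, which was lowest for 5 members, also had the lowest summed level of this list, 2404 CPM against 3391, 3492 and 3731 CPM in Sham replicates 1 to 3. Without that library 18 genes were higher and 2 lower. Leaving out CLP replicate 3 or Sham replicate 2 gave the same counts, so they do not measure the part of Sham replicate 4.

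Interferon receptors, JAK kinases, STAT and IRF factors and their regulators went both ways. Of 29 tested, 17 were higher, 6 lower and 6 not called, with a median log2 fold change of 0.47. Socs3, a feedback inhibitor of JAK-STAT signalling and the most abundant, averaged 3510 ± 266 CPM in CLP and 514 ± 215 CPM in Sham (2.77, adjusted p = 0.000421). Socs1 rose by 2.44 and Batf, an AP-1 partner of IRF factors, by 1.54 on the log2 scale. Irf1, a known activator of the PD-L1 gene under interferon gamma, was named after its values were seen. Irf1 rose to 709 ± 130 CPM in CLP, against 271 ± 35.5 CPM in Sham (1.38, adjusted p = 2.23e-05). With library totals 12 of the list were higher and 10 lower, and leaving out any 1 of the 8 libraries brought the lower genes to between 2 and 4.

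Genes that act on the stability or shedding of these proteins moved little. Of 20 tested, 3 were higher, none was lower and 17 did not pass, with a median log2 fold change of -0.01, and scaling by library totals left 1 higher and 13 lower. March1, the ubiquitin ligase that removes CD86 from the surface, averaged 351 ± 108 CPM in CLP and 417 ± 49.9 CPM in Sham (adjusted p = 0.35). The higher genes were Adam17, a protease that sheds membrane proteins (0.68, adjusted p = 0.000172), Bag6, which binds the tail of TIM-3 (0.35, adjusted p = 0.00315), and Cops5, a deubiquitinase reported for PD-L1 in human cells (0.25, adjusted p = 0.034).

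**Figure D5:**
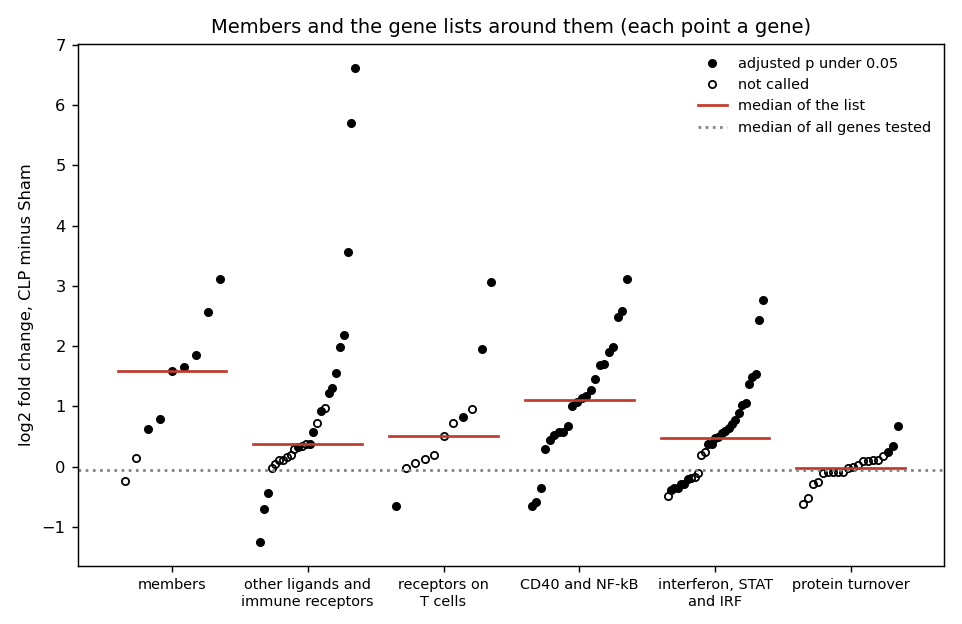
Log2 fold change (CLP minus Sham) of every tested gene of the members and of the 5 lists, sorted within a list, with called genes filled, the list's median in red and the median of all genes dotted. The medians are 1.59 for the members, 1.11 for the CD40 and NF-kB list and -0.01 for protein turnover.

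The sorted libraries carried the RNA of red pulp macrophages, with markers of other cell types at lower levels. The summed level of the 8 macrophage markers (Vcam1 most abundant, with Spic, Adgre1, Hmox1, Slc40a1, Cd163, Itgad and Cd68) was 30766 to 35141 CPM in CLP and 26528 to 32868 CPM in Sham. Of these 8, Spic (log2 fold change 0.90), Adgre1 (0.44), Vcam1 (0.36) and Itgad (0.26) were higher, Slc40a1, the iron exporter ferroportin, was lower (-0.40), and Hmox1, Cd163 and Cd68 were not called. The 10 dendritic cell markers, a cell type that expresses most of the members, summed to 237 to 292 CPM in CLP and 188 to 234 CPM in Sham. Of 9 tested, Ccr7, Fscn1 and Zbtb46 were higher, Clec9a was lower, and Itgax, the most abundant, Dpp4, Flt3, Xcr1 and Clec10a were not called. Ccr7 averaged 26.9 ± 2.87 CPM in CLP and 9.78 ± 3.87 CPM in Sham, and Fscn1 24.3 ± 6.08 and 8.1 ± 4.08 CPM. Zbtb46 averaged 20 ± 4.71 CPM in CLP and 12 ± 2.01 CPM in Sham, and Clec9a 6.4 ± 2.23 and 10.8 ± 2.78 CPM. Flt3 averaged 7.89 ± 2.83 CPM in CLP and 6.91 ± 1.34 CPM in Sham, and Cd209a averaged below 1 CPM in both groups. Cd40 and Pdcd1lg2 were themselves in this range of levels, and the part of dendritic cells in their values was not tested.

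B cell markers (Cd79b most abundant, Pax5 also above 5 CPM) summed to 33.9 to 46.7 CPM in CLP and 46.8 to 52.9 CPM in Sham, with 1 of 8 lower. T cell markers (Cd4 most abundant, with Trac, Cd3e, Cd8a, Lck and Cd3d) summed to 110 to 137 CPM in CLP and 101 to 109 CPM in Sham, with none of 8 called. NK cell markers (Klrk1) had 1 of 5 lower, Ncr1, at 0.153 to 0.256 CPM in CLP and 0.651 to 1.19 CPM in Sham. Ncr1 passed the filter on low counts through the Sham libraries, so its call is a description. Monocyte markers (Plac8) had none of 5 called, and marginal zone macrophage markers (Siglec1, Nr1h3) had 1 of 4 higher, Marco. Endothelial markers (Pecam1, Stab2) summed to 780 to 870 CPM in CLP and 790 to 873 CPM in Sham, with none of 4 called. Neutrophil markers (S100a9, S100a8) summed to 10.4 to 27.3 CPM in CLP and 3.33 to 8.91 CPM in Sham, with 2 of 3 higher and Ly6g near 0. Platelet markers (Ppbp, Itga2b) summed to 18.3 to 23.6 CPM in CLP and 6.66 to 8.65 CPM in Sham, with 3 of 5 higher. Erythroid markers (Alas2, Hbb-bs, Epor, Klf1) summed to 433 to 801 CPM in CLP and 168 to 423 CPM in Sham, with 2 of 5 higher and 1 lower. CLP replicate 3, in which Cd80, Cd83, Havcr2 and Vsir were lowest of the CLP libraries, had the highest sums of neutrophil (27.3 CPM), monocyte (57.7 CPM), T cell (137 CPM), erythroid (801 CPM) and marginal zone (958 CPM) markers. Several sums rested mostly on a few genes. In CLP, Pecam1 averaged 481 CPM and Cdh5 3.68 CPM, and Cd4 averaged 86.1 CPM and Cd3e 7.44 CPM. A sum is thus not a measure of the share of a cell type, and the part of these cells in the results was not tested.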

How the data were processed

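Read counts of 4 CLP and 4 Sham libraries were used, grouped by the sample titles. The authors deposited unnormalized read counts for each Ensembl gene in a single table. The submitters' processing notes name FastQC, STAR 2.7.10b, featureCounts, DESeq2 and the build mm39, without roles. The strand setting of the counting is not given in the sources used here, nor is the annotation release. Symbols and exon lengths came from GENCODE mouse release 21, and 52081 IDs had a symbol. Total counts per library were 15392992 to 25665633. The TMM factors were 0.873 to 0.915 in CLP and 1.08 to 1.15 in Sham. With these factors 1 CPM rests on about 15.1 to 27.6 reads. Every pair of libraries within a group differed beyond sampling noise, with a chi-square of at least 8.48 times its degrees of freedom.

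Counts were tested with edgeR 4.0.16 (R 4.3.3): filterByExpr, TMM factors, and a robust quasi-likelihood F-test without covariates on the 14004 genes kept, with Benjamini-Hochberg adjustment over all of them and a threshold of 0.05. Each SE was derived from the log2 fold change and its F statistic, and intervals use the t distribution with the fit's degrees of freedom. Levels between genes are compared per kb of exon. Ratios between members use counts plus 0.5, with Python 3.11.15 and scipy 1.17.1.

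Alternatives were DESeq2 1.42.0, limma-voom (limma 3.58.1), other scalings and filters, a replicate block and each library left out in turn. A surrogate variable (sva 3.50.0) was added after the data were seen. The members and the lists (other ligands, T cell receptors, CD40 and NF-kB, interferon and STAT, protein turnover, and markers of 11 cell types) were chosen with earlier results of these data known. The rule for named genes took all members, from each pathway list the 3 largest called changes at a mean of 5 CPM or more and the most abundant gene, from each marker list the most abundant gene and those above 5 CPM in a library, and for each member the 3 nearest profiles. A few genes that this rule names are not reported here. Figures were drawn with matplotlib 3.10.9.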

Additional observations from a re-analysis of the deposited data

How the results depend on the processing

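Cd274, Cd40, Cd80, Cd86, Cd83 and Icosl were called higher under all 17 alternatives run. Library totals in place of TMM gave 1286 genes higher and 6435 lower, against 2767 and 3297 with TMM. With library totals Pdcd1lg2 fell short of the threshold (log2 fold change 0.48), Havcr2 turned (-0.18, neither value called) and Vsir was called lower (-0.54). This follows from the median shift of -0.32 that this scaling brings. It also changed list counts: 5 other ligands were lower (3 with TMM), 10 interferon and STAT genes lower (6 with TMM), and 1 protein turnover gene higher and 13 lower (3 and 0 with TMM). With no filter on low counts 1 other ligand was lower, and the cause was not tested. Leaving out 1 library gave 0.69 to 0.93 for Pdcd1lg2, 1 to 2 lower other ligands and 2 to 4 lower interferon and STAT genes.

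Between same-numbered CLP and Sham libraries the correlations of their deviations from the group means were 0.0743, -0.0377, 0.261 and -0.192. Those between differently numbered libraries ran from -0.208 to 0.191. The labels state no pairing, and so few values cannot decide whether the numbers pair the libraries. With the replicate block 2799 genes were higher and 3290 lower, and Vsir was called lower (-0.23, adjusted p = 0.0329), while no other member changed its call.

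Leaving out 1 library, the difference between groups in log2 ratio was 1.29 to 1.62 for Cd274 over Cd80, 2.35 to 2.64 for Cd274 over Cd86, 2.21 to 2.50 for Cd274 over Pdcd1lg2, 1.79 to 2.28 for Cd40 over Cd86, 1.00 to 1.11 for Cd80 over Cd86 and 0.30 to 0.42 for Havcr2 over Vsir. With 7 libraries the exact test cannot go below 0.0571. Pdcd1lg2 rests on 38 to 80 reads per library.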

Other observations

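Cd276, which encodes the B7 family member B7-H3, was not named by the rule because its mean was under 5 CPM, and it was picked after its values were seen. It lay between 1.84 and 5.23 CPM in the CLP libraries and between 0 and 0.117 CPM in the Sham libraries. It passed the filter on low counts only through the CLP libraries, so these values are a description, with no test and no fold change. Cd244a, a receptor for CD48 of the SLAM family, was picked likewise. It averaged 287 ± 82.9 CPM in CLP and 98.1 ± 14.8 CPM in Sham (log2 fold change 1.55, adjusted p = 0.000415), while its ligand Cd48 was at 164 ± 17.6 CPM in CLP and 131 ± 1.58 CPM in Sham (0.32, adjusted p = 0.00741). Icam1, the adhesion ligand of LFA-1 on T cells, was also picked after its values were seen. Its level averaged 2270 ± 233 CPM in CLP and 575 ± 148 CPM in Sham (1.98, adjusted p = 3e-05).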
